A study of Mus musculus with 7 samples.

Results

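The 9 genes Vwde, Scin, Myo3b, Fam20a, Rasgrf1, Muc16, Col16a1, Reep1 and Gem were described in the transcriptome of CD4+ cells sorted from mouse spleen. They are 9 of the 19589 gene symbols in the expression table, and all 9 were found by symbol. They were chosen by their values in these same libraries, low in wild-type and higher in mutant cells, with no stated cut-off. That difference is therefore given as a description. The 9 were part of the fits over all genes, but no result of those fits is taken as support for it. The wild-type group (WT) held 4 C57BL/6 mice. The mutant group (RT) held 3 mice of the same strain, which the series describes as Tet2-/- with G17V RHOA. Each mouse gave 1 library. The sources used here give neither the driver of the RHOA form nor the cells in which Tet2 was lost, and they give no ages. Both groups were sorted for CD4 in the same way, and the labels give no treatment.

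Tet2 encodes a dioxygenase that oxidises 5-methylcytosine, the methylated base of CpG sites, and its loss is common in blood cancers. G17V RHOA is a form of the small GTPase RhoA that does not bind nucleotide properly and that occurs together with TET2 loss in angioimmunoblastic T cell lymphoma, a tumour of CD4+ follicular helper-like T cells. The 9 genes are not known as one pathway. Scin and Myo3b act on actin, Rasgrf1 and Gem belong to small GTPase signalling, Reep1 and Fam20a work in the endoplasmic reticulum and secretory pathway, and Muc16, Col16a1 and Vwde encode surface or extracellular proteins.

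Expression was given as RPKM, the number of reads divided by the length of the gene in kilobases and by the size of the library, and the reads behind each value could be recovered. Of the 7 libraries, 3 were deep (WT1, WT2 and RT1, with 8833215 to 10983534 reads recovered in genes) and 4 were shallow (WT3, WT4, RT2 and RT3, with 95920 to 110662). Both groups held mice of both sexes by Xist and Ddx3y: Xist was at 35.7 to 85.2 RPKM in WT1, WT2, RT1 and RT2 and at 0 to 0.459 RPKM in WT3, WT4 and RT3, where the Y-linked Ddx3y was at 14.0 to 19.3 RPKM. Within WT, depth and sex therefore cannot be told apart. The CD4 T cell marker list was above 0 for all 10 of its 10 genes in every RT library. Tet2 itself was at 6.32, 4.68, 2.86 and 2.79 RPKM in WT and at 5.03, 0.803 and 0 RPKM in RT1, RT2 and RT3, and Rhoa at 64.0 to 183 RPKM in WT and 57.8 to 187 RPKM in RT. These are values over whole genes and do not show which exons the reads covered, so they check neither the Tet2 deletion nor the RHOA form.

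All 9 genes were at or below 3.91 RPKM in every WT library and at or above 1.08 RPKM in every RT library. Every RT library lay above every WT library for each of the 9 genes, a pattern that 4.47% of the 9605 genes in the RPKM fit share. This describes how the genes were picked and supports nothing further. The table held 541 genes within both of those bounds, of which 194 had every RT library above every WT library, and the reverse bounds held 600 genes. In the limma fit of log2(RPKM + 1), 4 of the 9 genes were past the adjusted threshold of 0.05 on the higher side, where 0.0416% of all genes were. These 4, Scin, Vwde, Fam20a and Myo3b, were the only genes so called, and the count over all genes was 0 without WT2, WT3, RT2 or RT3, 2 without WT4 and 10 without RT1. In the limma voom fit of recovered reads, 9 of 9 were, against 9.69% of 5853 genes. Since the genes were selected on this contrast, nothing is read from those counts or from which genes were called. All 9 passed the filter on low values in both fits. In the read fit all 9 passed only through RT, since the shallow WT libraries together held 0 to 2 reads of each. In the RPKM fit all but Myo3b needed their RT values to pass. The median log2 difference, RT minus WT, over the 9 genes was 3.23 in the RPKM fit and 5.07 in the read fit, beside 0.00 and -0.03 over all genes.

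**Figure D1:**
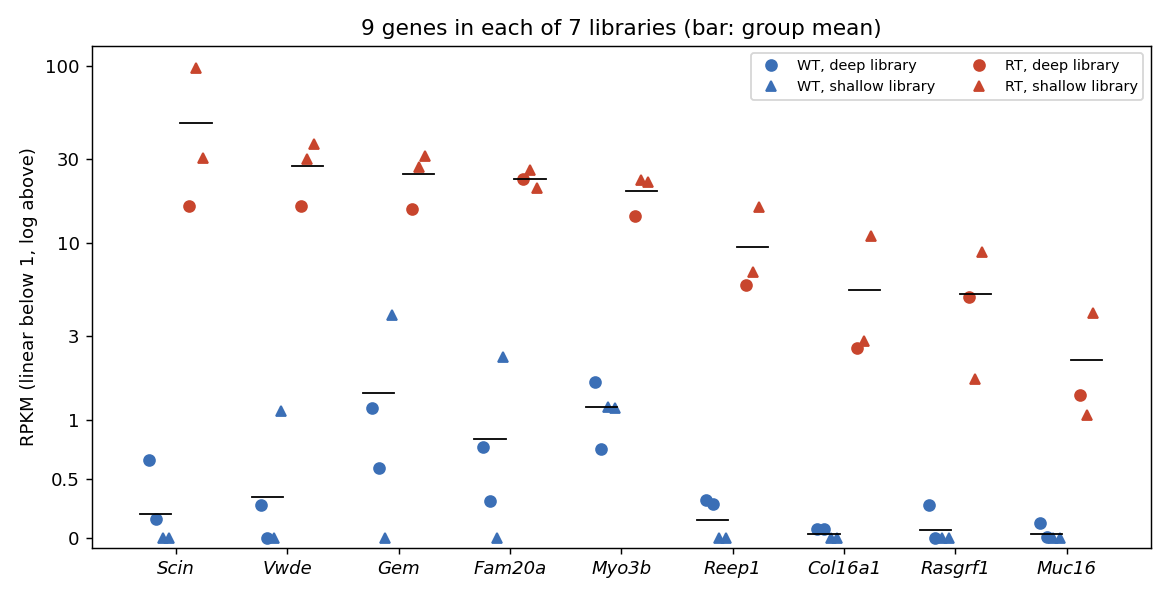
Expression of each of the 9 genes in RPKM (vertical axis, linear below 1 and logarithmic above) in the 4 WT libraries (blue) and 3 RT libraries (red), with circles for deep and triangles for shallow libraries and a bar at each group mean. For each gene the RT points lie above the WT points, from Scin with an RT mean of 48.0 RPKM down to Muc16 with 2.18 RPKM.

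The plot of RPKM by library shows the genes in the order of their RT means. In RT1, the deep RT library, Fam20a, Vwde, Scin, Gem and Myo3b were each higher than 85.0% to 91.7% of the genes above 0. Reep1 and Rasgrf1 lay near the middle, higher than 62.9% and 57.8%. Col16a1 and Muc16 were low even there, higher than 40.3% and 28.5%. Per length, the first 5 of these genes formed the upper group in each RT library, and Muc16 was the lowest of the 9 in all 3.

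The sequence before the start of each gene was not used to pick the genes. RefSeq windows of the 250 bases before the start (assembly GRCm38.p6, the same build as mm10) were found for 8 of the 9 genes, all but Gem. Because TET2 acts at CpG sites, 4 windows that span the range of CpG number are printed here, 5′ to 3′ on the strand of the gene, with each CG in capitals. Muc16 is at chr9:18674604-18674853, minus strand, and Vwde at chr6:13224966-13225215, minus strand. Rasgrf1 is at chr9:89909525-89909774, plus strand, and Col16a1 at chr4:130047590-130047839, plus strand.
Muc16: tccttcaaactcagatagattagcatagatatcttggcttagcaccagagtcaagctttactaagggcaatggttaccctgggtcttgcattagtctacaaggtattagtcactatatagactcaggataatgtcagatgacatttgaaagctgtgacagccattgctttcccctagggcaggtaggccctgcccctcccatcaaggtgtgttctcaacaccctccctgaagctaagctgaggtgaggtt
Vwde: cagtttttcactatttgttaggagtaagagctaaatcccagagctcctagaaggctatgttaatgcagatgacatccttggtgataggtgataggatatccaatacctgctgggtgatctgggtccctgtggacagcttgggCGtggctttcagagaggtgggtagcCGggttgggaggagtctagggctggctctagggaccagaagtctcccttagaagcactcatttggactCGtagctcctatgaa
Rasgrf1: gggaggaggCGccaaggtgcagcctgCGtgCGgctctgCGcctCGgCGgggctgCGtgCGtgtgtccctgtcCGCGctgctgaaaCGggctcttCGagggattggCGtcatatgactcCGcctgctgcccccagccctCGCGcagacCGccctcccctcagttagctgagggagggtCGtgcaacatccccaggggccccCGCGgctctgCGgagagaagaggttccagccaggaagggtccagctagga
Col16a1: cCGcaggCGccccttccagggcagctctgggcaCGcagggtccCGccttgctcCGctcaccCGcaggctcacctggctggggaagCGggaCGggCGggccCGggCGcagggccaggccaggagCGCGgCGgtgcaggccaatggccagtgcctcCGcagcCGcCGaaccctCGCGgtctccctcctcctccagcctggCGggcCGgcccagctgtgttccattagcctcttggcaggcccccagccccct

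The 4 windows hold 0 CpG sites for Muc16, 3 for Vwde, 21 for Rasgrf1 and 21 for Col16a1. Myo3b and Reep1 held 6 each, Scin 9 and Fam20a 10. The median was 7.5 over the 8 genes and 6 over all 32851 windows, and the median GC content was 54.6% and 52.4%. Muc16 has the fewest CpG sites possible, whereas 83.7% of windows have fewer than Rasgrf1 and Col16a1. All 8 genes were picked for low WT values, so a link between CpG number and WT level was not tested. Of 5 motifs searched on both strands, 4 had no match in the 8 windows. These were TATAAA (in 12.4% of all windows), the AP-1 site TGANTCA (6.75%), the cAMP response element TGACGTCA (1.55%) and the STAT palindrome TTCNNNGAA (7.02%). The E-box CAGCTG, found in 13.0% of all windows, matched once, in Col16a1, beginning 42 bases before the start. A match is a run of letters and not a measured binding site. Methylation and binding were not measured in these samples.

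**Figure D2:**
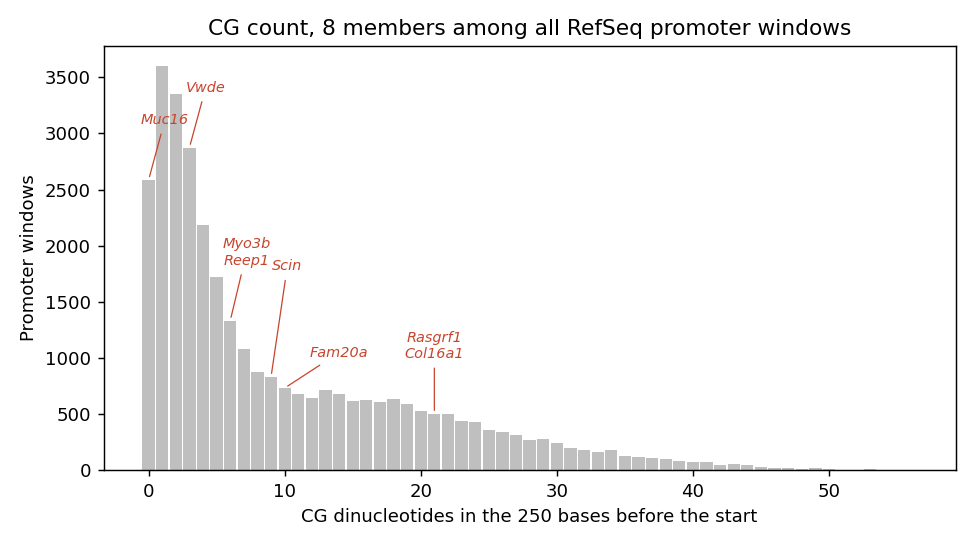
Number of CG dinucleotides in the 250 bases before the start (horizontal axis) against the number of RefSeq promoter windows with that count (vertical axis, grey bars, 32851 windows), with 8 of the 9 genes marked. The genes run from 0 in Muc16 to 21 in Rasgrf1 and Col16a1, around an all-window median of 6.

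The histogram of CG counts shows the 8 genes spread over the main body of all windows rather than gathered at one end.

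Scin encodes scinderin (adseverin), a calcium-dependent protein of the gelsolin family that severs and caps actin filaments. It lies at chr12:40059769-40134228, minus strand. Scin was at 0.665, 0.166, 0 and 0 RPKM in WT1 to WT4 and at 16.1, 97.7 and 30.1 RPKM in RT1 to RT3. In deposited RPKM it had the widest spread of the 9 among the RT libraries, 6.06-fold with RT2 highest. With RPKM rescaled to a common sum, that spread was 2.89-fold, less than the 7.32-fold of Rasgrf1. The reads behind the values were 37, 10, 0 and 0 in WT and 1055, 31 and 11 in RT. In the deep libraries the RT level was 39.1 times the WT level (95% exact interval 29.2 to 53.6). For each of the 9 genes, the deep fold sets RT1 against the pooled reads of WT1 and WT2. Its interval covers counting error and not the spread between mice. In the shallow libraries, with 42 RT reads and none in WT, the RT level was 14.4-fold higher with WT set at 3 reads over both libraries. That fold takes the RT reads as counted, so it is not a lower limit. The log2 difference was 4.99 ± 0.62 (SE) in the RPKM fit and 5.60 ± 0.55 in the read fit.

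Myo3b encodes a class III unconventional myosin, an actin motor with a kinase domain, best known from photoreceptors and hair cells. It lies at chr2:70039126-70429198, plus strand. Myo3b stood at 1.65, 0.752, 1.19 and 1.17 RPKM in the WT libraries and at 14.2, 22.8 and 22.2 RPKM in RT. It was the one gene of the 9 with reads in every WT library, 216, 106, 1 and 1, so its WT level was low but not zero. The RT libraries held 2183, 17 and 19 reads and differed by 1.61-fold in RPKM. RT exceeded WT by 11.8 times (10.5 to 13.3) in the deep libraries and by 18.5 times (4.76 to 158) in the shallow ones, and the 2 intervals overlap. The fitted log2 differences were 3.23 ± 0.42 (RPKM) and 3.67 ± 0.33 (reads).

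Rasgrf1 encodes a calcium-activated exchange factor that loads GTP onto Ras and Rac, studied mostly in neurons, and is imprinted in the mouse, with expression from the paternal copy in brain. It lies at chr9:89909908-90026977, plus strand. The WT values were 0.282 RPKM in WT1 and 0 in WT2, WT3 and WT4, from 58 reads in WT1 alone. In RT1, RT2 and RT3 they were 4.95, 1.71 and 8.92 RPKM, from 1193, 2 and 12 reads. The RT2 value thus rests on 2 reads, although the 3 RT libraries all exceeded WT1. The deep fold, which pools 58 reads in WT1 with 0 in WT2, was 35.9 (27.5 to 47.5). The shallow libraries held 14 RT reads and 0 WT reads, a 4.79-fold difference with WT set at 3 reads. The log2 difference was 2.35 ± 0.55 in the RPKM fit and 7.21 ± 1.40 in the read fit, where it was 4.01 without WT2 and 3.57 without RT1.

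Gem encodes a GTP-binding protein of the RGK family, first described as induced by mitogen in T cells, which inhibits voltage-gated calcium channels. It lies at chr4:11704457-11714752, plus strand. Its WT values were 1.18, 0.593, 0 and 3.91 RPKM and its RT values 15.5, 27.0 and 31.3 RPKM. The highest WT value, in WT4, came from 1 read, since 1 read of Gem is worth 3.91 to 4.49 RPKM in a shallow library. Reads were 46, 25, 0 and 1 in WT and 712, 6 and 8 in RT. The RT level was 17.5 times (13.7 to 22.6) that of WT in the deep libraries and 14.4 times (2.19 to 607) in the shallow ones. The log2 difference was 3.60 ± 0.59 in RPKM and 4.16 ± 0.33 in reads.

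Reep1 encodes a membrane protein that bends the tubular endoplasmic reticulum and is mutated in hereditary spastic paraplegia. It lies at chr6:71707561-71810710, plus strand. Reep1 was at 0.327, 0.291, 0 and 0 RPKM in WT and at 5.82, 6.90 and 16.0 RPKM in RT. The deep WT libraries were close to each other, at 25 and 24 reads, and RT1 held 522. The shallow RT libraries held 3 and 8 reads and the shallow WT libraries none, a difference of 3.76-fold with WT set at 3 reads. In the deep set the fold was 18.6 (13.8 to 25.4). The fits gave log2 differences of 3.09 ± 0.50 (RPKM) and 4.16 ± 0.26 (reads).

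Fam20a encodes a pseudokinase of the secretory pathway that binds the kinase Fam20C and raises its activity, and is needed for tooth enamel. It lies at chr11:109669749-109722279, minus strand. WT libraries gave 0.771, 0.316, 0 and 2.26 RPKM and RT libraries 22.9, 26.0 and 20.4 RPKM. This was the narrowest RT spread of the 9 genes in RPKM, 1.28-fold. As a share of reads, however, Fam20a was at 165 per 1000000 reads in RT1, 104 (49.99 to 192) in RT2 and 81.3 (37.2 to 154) in RT3, so RT1 lay above the interval of RT3. The read counts were 52, 23, 0 and 1 in WT and 1816, 10 and 9 in RT. The deep fold was 42.2 (33.5 to 53.9) and the shallow one 19.5 (3.10 to 810.0). The log2 differences were 3.85 ± 0.51 (RPKM) and 5.44 ± 0.38 (reads).

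Vwde is named for its von Willebrand factor D and EGF domains, which occur in extracellular proteins. It lies at chr6:13156299-13224965, minus strand. The WT values were 0.281, 0, 0 and 1.13 RPKM, from 38, 0, 0 and 1 reads. RT1, RT2 and RT3 held 16.3, 29.8 and 36.1 RPKM, from 2583, 23 and 32 reads. Vwde had the largest fold of the 9 in the deep libraries, 118 (86.1 to 168), and in the shallow ones 55 RT reads stood against 1 WT read, a ratio of 56.4 (9.72 to 2269). The deep fold pools 38 reads in WT1 with 0 in WT2. The fitted log2 differences were 4.39 ± 0.50 in RPKM and 8.32 ± 1.27 in reads, the latter 5.70 without WT2 and 5.04 without RT1.

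Muc16 encodes a very large membrane mucin of epithelia and mesothelium that carries the CA125 antigen. It lies at chr9:18495455-18674530, minus strand, and its exons total 26350 bases, so few RPKM correspond to many reads. Muc16 was at 0.131, 0.0133, 0 and 0 RPKM in WT and at 1.39, 1.08 and 4.06 RPKM in RT. The reads were 64, 7, 0 and 0 in WT and 801, 3 and 13 in RT. This was the lowest RT level of the 9 per length, and RT2 and RT1 were close to each other while RT3 was highest. The deep fold, which pools 64 reads in WT1 with 7 in WT2, was 19.7 (15.4 to 25.4). With WT set at 3 reads, the shallow fold was 5.47. The log2 difference was 1.50 ± 0.51 in the RPKM fit and 5.07 ± 0.72 in the read fit. The pseudocount of 1 RPKM weighs most on a gene of this level.

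Col16a1 encodes the chain of collagen XVI, a collagen that sits on the surface of larger fibrils. It lies at chr4:130047840-130099283, plus strand. WT1 and WT2 held 0.0798 and 0.0740 RPKM from 10 reads each, and WT3 and WT4 held none. The RT libraries held 2.56, 2.80 and 11.0 RPKM, from 377, 2 and 9 reads, so RT3 was the highest. The fold in the deep libraries was 32.9 (21.0 to 54.4), and in the shallow ones 3.76 with WT set at 3 reads. Log2 differences of 2.39 ± 0.56 (RPKM) and 4.79 ± 0.43 (reads) were fitted.

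The likeness of the RT libraries in the sum of the 9 genes depended on the scale. The sum was 1024, 1011 and 1093 RPM (reads per 1000000 recovered reads) in RT1, RT2 and RT3 and 61.8, 19.9, 9.56 and 37.3 in WT1 to WT4. With RPKM rescaled to a common sum of 1000000, the RT sums were 689, 589.8 and 552, and as deposited RPKM they were 99.8, 216 and 179.96. Recovered reads were 50.4% of the library total in RT1 and 90.7% and 91.0% in RT2 and RT3. In RPM, the lowest RT sum was 16.4 times the highest WT sum. Vwde, Scin and Myo3b made up 51.2% to 73.2% of that sum in RT. In bulk RNA, more cells with a transcript and more transcript per cell cannot be told apart.

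Single genes differed between RT libraries in different ways. Scin was at 323 RPM (exact interval 219.6 to 459) in RT2, above both 96.1 (90.3 to 102) in RT1 and 99.4 (49.6 to 178) in RT3. RT2 lay below RT1 for Rasgrf1, at 20.9 (2.53 to 75.3) against 109, and for Muc16 its interval of 6.45 to 91.4 included the RT1 value of 72.9. Col16a1 was at 34.3 in RT1, just under the interval of 37.2 to 154 around its RT3 value of 81.3. For Vwde (235, 239.8 and 289), Myo3b (199, 177 and 172) and Gem (64.8, 62.6 and 72.3), the 3 libraries lay within the intervals of the shallow ones. These intervals cover counting error and not the spread between mice.

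**Figure D3:**
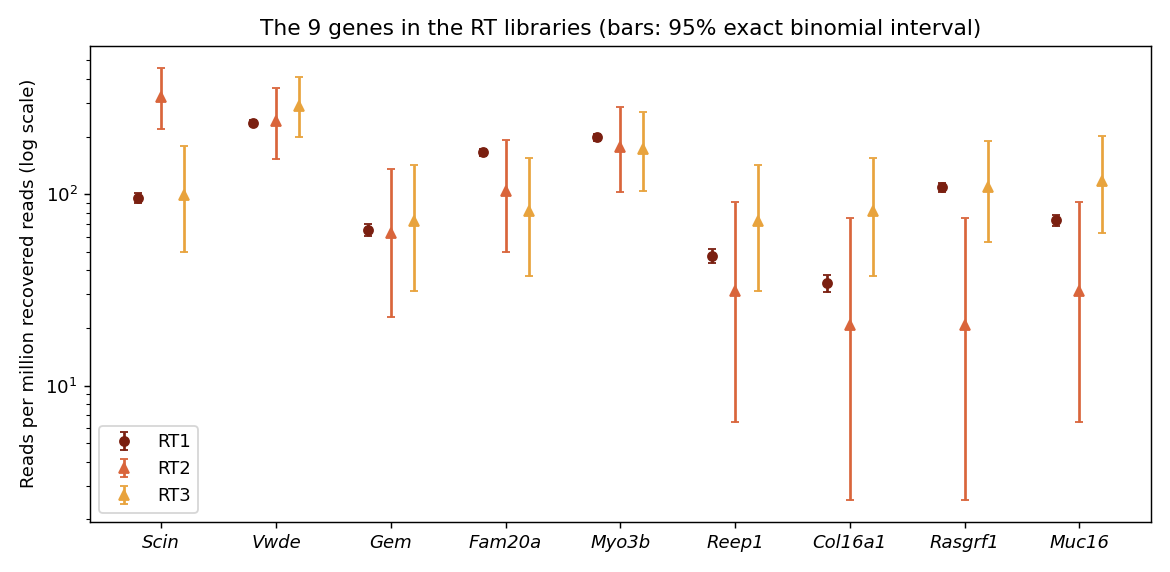
Share of each of the 9 genes in the recovered reads of RT1 (dark circles, deep), RT2 and RT3 (triangles, shallow), in RPM on a log scale, with 95% exact binomial intervals. Scin in RT2, at 323 RPM, lies clear of the other 2 libraries, and the RT2 values of Rasgrf1 and Col16a1 rest on 2 reads each.

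The plot of RT shares shows how far depth sets what can be compared: bars are narrow in RT1 and wide in RT2 and RT3. In WT, the trace levels are given as a description, since the genes were chosen by them. WT1 was above WT2 for 9 of 9 genes in RPKM, against 43.3% of the genes in the RPKM fit, and the sum was 3.11 times higher in WT1. With RPKM rescaled to a common sum, WT1 was again above WT2 for 9 of 9 genes, against 60.8% of the genes in the fit. Those shares cover genes of every level, and WT1 and WT2 are single mice, so nothing is read from this order. In WT3 and WT4, 1 and 4 of the 9 genes had any read, and a gene with 0 reads there may still be at up to 28.0 to 28.7 RPM, counting 3 reads as the limit. All 9 genes were below that limit in WT1 and WT2, where the highest, Myo3b, reached 24.5 RPM in WT1, so the shallow WT libraries do not show whether their levels differ from those of the deep ones.

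Markers of other cells were measured beside the 9 genes. The sum of 10 monocyte and macrophage markers was 975 to 1930.5 RPM in WT, 5405 in RT1 and 646 to 840.4 in RT2 and RT3, while the 9 genes summed to 1024 in RT1 and to 1011 and 1093 in RT2 and RT3. None of the 10 was at 0 in all RT libraries. In the read fit, 7 of 8 tested were higher in RT (9.69% of all genes were), while within the shallow set the sum was lower in RT than in WT, at 1724 to 1930.5. Neutrophil markers (10 genes) were at 11.0 to 38.2 in WT, 165 in RT1 and 9.04 to 10.4 in the other RT libraries. The 8 mesothelial markers, listed because Muc16 is a mesothelial gene, summed to 0 to 5.77 in WT and to 0 to 1.0 in RT, with 7 of 8 at 0 in every RT library, Msln and Wt1 among them. The 10 fibroblast and stromal markers, listed for Col16a1, were at 424 to 540.4 in WT and 53.3 to 490.0 in RT. Thy1, which mouse T cells also express, held nearly all of that sum, with 3708, 5455, 47 and 58 reads in WT and 526, 47 and 33 in RT. None of the other 9 had more than 32 reads in any library, and Dcn and Lum were at 0 in all 7. Mast cell and basophil markers were at 13.2 to 28.0 in WT and at 0 to 3.82 in RT, with 8 of 9 at 0 in every RT library. Endothelial markers were at 224 to 302 in WT and 115 to 321 in RT, most of it from Pecam1, which leukocytes also express (10 reads in RT2 and 23 in RT3). Tie1, Emcn and Cldn5 were at 0 in all 7 libraries.

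The 8 neuronal markers were listed because Rasgrf1, Reep1 and Myo3b are known from neurons or sensory cells. Their sum was 0 to 11.7 RPM in WT and 156, 62.6 and 27.1 RPM in RT1, RT2 and RT3. In RT2 and RT3 it was the sum of 1 gene, Map2, with 6 and 3 reads, and the other 7 were at 0 there. Of the 8, Snap25, Rbfox3, Stmn2, Elavl4 and Nefl were at 0 in every RT library, Stmn2 with 16 reads in WT2, and Map2 was at 4.50, 3.45 and 1.499 RPKM in RT1, RT2 and RT3. The CD4 T cell list was at 5070.0 to 6002 in WT, 4801 in RT1 and 10690.2 to 10926 in RT2 and RT3. B cell markers were at 229 to 1817 in WT, highest in the shallow libraries, and at 156 to 407 in RT. Plasma cell markers were at 170 to 1863 in WT and 344 to 693 in RT, and dendritic cell markers at 173 to 1070.4 and 219 to 360.1. Within the deep set, B cell, plasma cell and dendritic cell sums were each higher in RT1 than in WT1 and WT2. Within the shallow set each was lower in RT than in WT. B cell sums there were 156 to 244 in RT against 1567 to 1817 in WT, and plasma cell sums 344 to 488 against 1720 to 1863. Dendritic cell sums were 219 to 262 against 988 to 1070. Erythroid and megakaryocyte sums in RT lay within or below their WT range, and CD8 and NK cell markers were at 122 to 149 in WT and 33.5 to 615 in RT. The high end in RT2 came from Nkg7 (40 reads) and Eomes (18 reads), while Cd8a was at 0 in every RT library and had 128, 47, 1 and 2 reads in WT. The part of these cells in the levels of the 9 genes was not tested.

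Ranked by the gap between the lowest RT and the highest WT value, log2((lowest RT + 1)/(highest WT + 1)), Scin was 1st of 19589 genes, Vwde 2nd, Fam20a 3rd, Myo3b 5th, Reep1 7th, Gem 17th and Col16a1 18th. Rasgrf1 and Muc16 came 61st and 91st, held back by RT2 values of 1.71 and 1.08 RPKM. The 5 genes outside the list with the largest gap, over all 7 libraries, were Slc1a4, Stfa3, Nrn1, Nrgn and Ifi202b, and they too are given without a test. Slc1a4, a transporter of neutral amino acids, was closest to the 9 genes in level, at 0.809, 0.216, 0 and 0 RPKM in WT and 15.5, 9.63 and 10.5 RPKM in RT. Its gap of 2.55 fell between those of Fam20a (2.71) and Myo3b (2.52). Nrgn, which encodes the calmodulin-binding protein neurogranin, was at 3.34, 0.928, 0 and 0 RPKM in WT and 17.5, 19.5 and 28.3 RPKM in RT. Nrn1, which encodes the membrane-anchored protein neuritin, had a higher WT level of 0 to 7.86 RPKM and reached 38.7, 84.1 and 339.9 RPKM in RT. Stfa3 and Ifi202b have near-identical copies in the mouse genome, so their values are uncertain. Stfa3 was at 0 in all 4 WT libraries and at 4.45, 45.9 and 19.95 RPKM in RT, from 40, 2 and 1 reads, and Ifi202b at 0 to 0.381 RPKM in WT and 4.84 to 8.49 RPKM in RT.

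**Figure D4:**
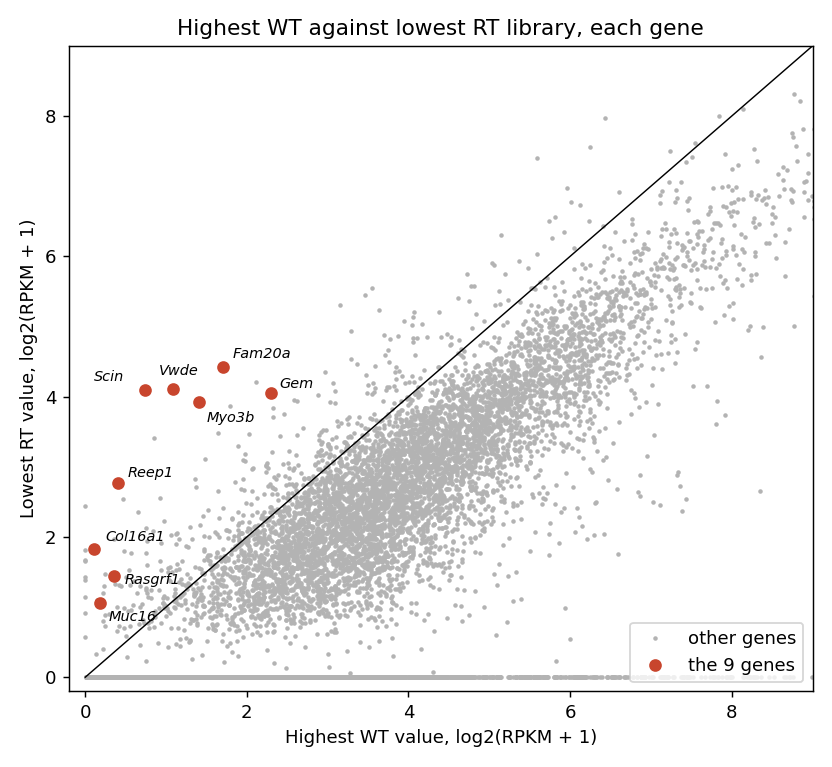
Highest WT value (horizontal axis) against lowest RT value (vertical axis) of each gene, both as log2(RPKM + 1), with the 9 genes in red, other genes in grey and a line where both are equal. The 9 genes stand above the line at the left edge, where the highest WT value is at most 3.91 RPKM.

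The plot of highest WT against lowest RT values restates the choice of the genes and shows that other genes share that corner.

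Relatives of the 9 genes were listed by family and not by their values. The lists held 141 genes, of which 139 were in the table. Most were silent, with 71 under 1 RPKM in all 7 libraries and 25 at 0 in all of them. P-values here set the difference against the spread within the groups. The read fit gives the deep libraries more weight, and RT1 is the only deep RT library. Its p-values therefore hold little of the spread among RT mice. In the limma voom fit of reads, 32 could be tested, and 5 were higher in RT (15.6%, against 9.69% of all genes) and 5 lower (15.6%, against 8.42%). Their median log2 difference was 0.22, beside -0.03 over all genes. In the limma fit of RPKM, 54 were tested and none was past the threshold in either direction. Before adjustment, 2 were higher and 6 lower (p under 0.05). For 4 of the 54 (Myo1h, Pkdcc, Reep3 and Atl2) every RT library lay above every WT library, as for 4.47% of genes in that fit. Pkdcc, listed for Fam20a and named here after its values were seen, was at 1.77 RPKM in WT1 and at 0 in the other WT libraries. In RT1, RT2 and RT3 it was at 3.99, 24.4 and 3.03 RPKM, from 236, 7 and 1 reads. The read fit leans on RT1: without that library it called 0 genes higher and 0 lower of all 5853, and before adjustment 169 were higher and 340 lower with a p under 0.05. Without RT3 it called 347 higher and 311 lower.

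Among Ras exchange factors and Ras proteins, the family of Rasgrf1, the 3 genes with the smallest p were lower in RT, in contrast to Rasgrf1. Rasgrp1, which couples T cell receptor signals to Ras, was at 33.7, 47.3, 34.5 and 52.9 RPKM in WT and at 9.36, 11.8 and 19.1 RPKM in RT. Every RT library lay below every WT library. The log2 difference was -2.07 ± 0.20 (limma voom adjusted p = 0.00063). Rasgrp2, an exchange factor for Rap1, went from 9.72 to 19.0 RPKM in WT to 2.05 to 4.58 RPKM in RT, a difference of -2.48 ± 0.19 (limma voom adjusted p = 0.00043). Rapgef6, another Rap exchange factor, was at 21.3 to 26.5 RPKM in WT and 3.62 to 17.0 RPKM in RT, with a difference of -1.05 ± 0.19 (limma voom adjusted p = 0.0084). In the shallow libraries alone these 3 genes had differences of -1.49, -2.12 and -1.53. Of the 9 list members tested, 3 fell and 1 rose, Ralgds, an exchange factor for Ral, by 1.45 ± 0.30 (limma voom adjusted p = 0.014), which is named here after its value was seen. Rasgrf2, the closest relative of Rasgrf1, was at 0.478 to 0.910 RPKM in WT and at 0.228, 0 and 0 RPKM in RT, too low to test.

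The actin genes were mixed. In the gelsolin family of Scin, 4 of 7 genes were tested, 1 rose and 1 fell. Capg, which caps filament ends without severing, was at 18.1 to 65.0 RPKM in WT and 42.1, 116 and 179 RPKM in RT, higher by 1.04 ± 0.19 (limma voom adjusted p = 0.0091). Svil, which encodes supervillin, a membrane-linked actin binder, fell by 0.85 on the log2 scale (SE 0.18, limma voom adjusted p = 0.017), at 4.71 to 6.99 RPKM in WT and 0.884 to 3.84 RPKM in RT. In 4 of 13 alternative settings Svil was not called. Gsn itself was not called, at 7.35 to 39.1 RPKM in WT and 8.98 to 10.4 RPKM in RT. Among myosins and partners of class III myosin, 9 of 26 were tested, 2 rose and 1 fell. Myo1h rose from 0.573 to 1.42 RPKM in WT to 2.63 to 9.57 RPKM in RT, by 1.94 ± 0.24 (limma voom adjusted p = 0.0019). In the shallow libraries alone its difference was 1.67 and was not called, from 1 and 1 reads in WT and 6 and 3 in RT. Myo1c, a class I myosin, had a difference of 1.07 ± 0.27 (limma voom adjusted p = 0.027), which was -0.15 without RT1 and was not called without WT3 or RT3. Myo1g, a class I myosin of blood cells, fell by 0.50 on the log2 scale (SE 0.12, limma voom adjusted p = 0.026), and with the replicate number as a block its adjusted p was 0.060. It was also not called without WT4 or RT3 (limma voom adjusted p = 0.074 and 0.061). Myo3a, the other class III myosin, was at 0 in all 7 libraries.

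In the other families few genes were called. No RGK protein or calcium channel subunit of the 12 listed for Gem could be tested on reads. The highest, Rrad, was at 4.61, 16.3, 0 and 5.21 RPKM in WT and 3.69, 11.99 and 5.21 RPKM in RT, which overlap. Rem1 and Rem2 were at 0.375 RPKM or less in every library. For Reep1, 8 of 16 ER-shaping genes were tested and 1 rose, Reep3, at 3.91 to 6.55 RPKM in WT and 8.99 to 11.7 RPKM in RT, by 0.77 ± 0.22 (limma voom adjusted p = 0.043, or 0.089 with the replicate block). Reep3 was not called without any 1 of WT3, WT4, RT2 or RT3. For Fam20a, Fam20b was the 1 gene of 8 tested, with a difference of 0.08 ± 0.23, and Fam20c, the kinase that Fam20a activates, was at 0 to 0.561 RPKM in WT and at 1.41, 0 and 0 RPKM in RT.

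The extracellular families were largely silent. Of 13 mucin and mesothelin genes listed for Muc16, 8 were at 0 in all 7 libraries and 10 in all RT libraries, and none reached the fits. Muc1, the highest, was at 0.390 RPKM in WT1, 0.274 RPKM in RT1 and 0 elsewhere. Of 29 collagens and collagen receptors listed for Col16a1, 8 were at 0 in all 7 libraries and 11 in all RT libraries. The receptor chain Itgb1, at 44.9 to 159 RPKM in WT and 71.8 to 211 RPKM in RT, was the 1 gene tested on reads, with a difference of 0.38 ± 0.18 that was not called, or 0.54 without WT1 (limma voom adjusted p = 0.024). Of 8 genes listed for Vwde as relatives by von Willebrand factor domains, none could be tested. The highest, Sspo, was at 0.363, 0.305, 0 and 0.518 RPKM in WT and at 1.26, 2.38 and 0 RPKM in RT, which overlap.

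**Figure D5:**
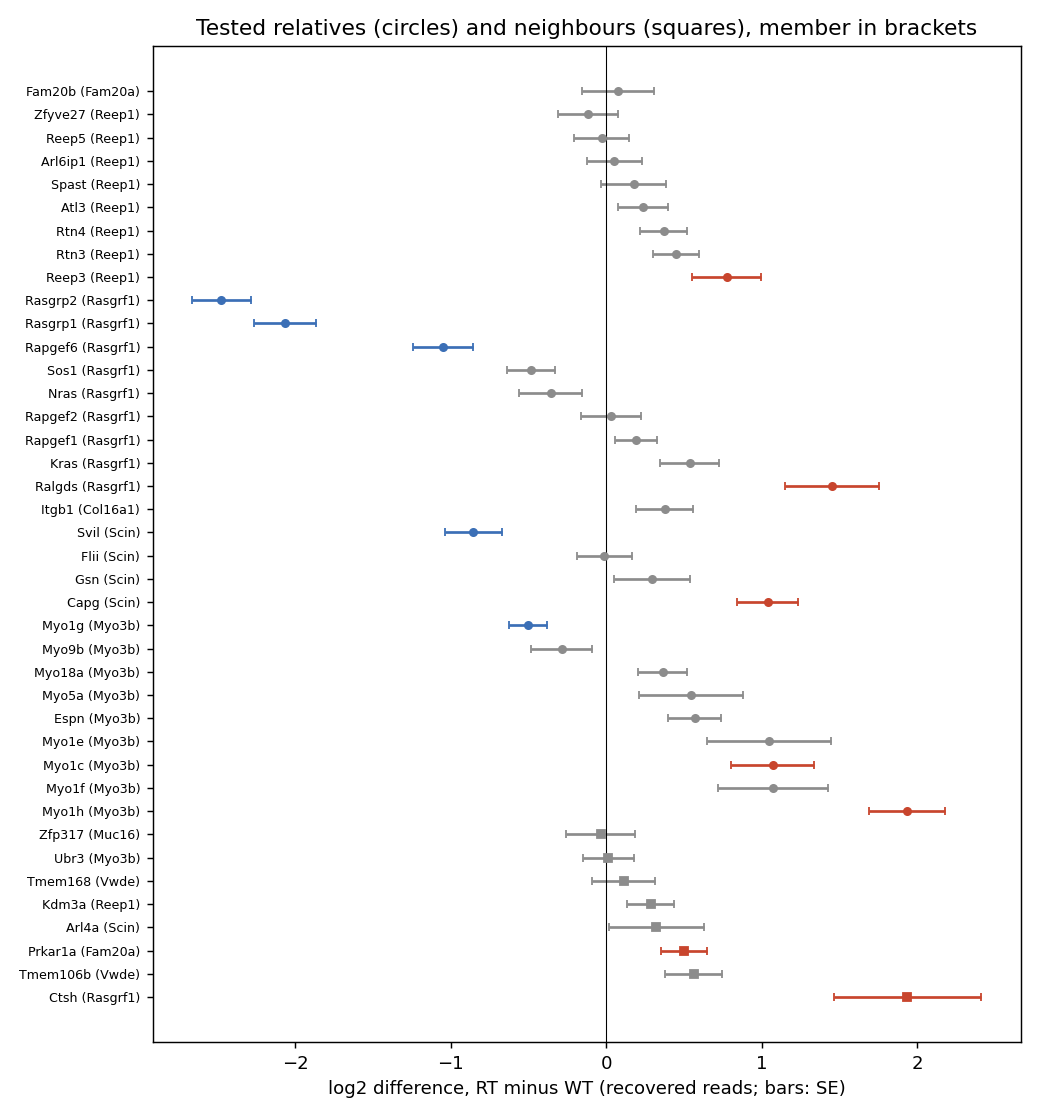
Log2 difference, RT minus WT, of recovered reads (horizontal axis, bars are SE) for the 32 relatives (circles) and 8 neighbours (squares) that could be tested, with the gene of the 9 they belong to in brackets. Red marks adjusted p under 0.05 and higher in RT, blue the same and lower, grey not called; Rasgrp2 and Rasgrp1 lie lowest at -2.48 and -2.07.

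The plot of relatives and neighbours shows most of them close to 0. The 9 genes had differences of 3.67 to 8.32 in the same fit, Col16a1, Reep1 and Gem at 4.79, 4.16 and 4.16 among them. Those differences follow from the choice of the 9 on this contrast, so nothing is read from the comparison.

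The genes next to the 9 on the chromosome were mostly silent or not called. The nearest protein-coding genes on both sides gave 18 neighbours, of which 6 were at 0 in all 7 libraries (Lsmem1, Sp5, Abca8b, Ankrd34c, Mbd3l1 and Adgrb2) and 8 were under 1 RPKM in every deep library. No neighbour had every RT library above every WT library. Since 4.47% of the genes in the RPKM fit had that pattern, nothing is read from its absence among 18 genes. In the limma voom fit, 8 were tested and 2 were higher, where 9.69% of all genes were, with a median log2 difference of 0.30, beside -0.03 over all genes. None was lower, and before adjustment 3 were higher and 0 lower at a p under 0.05. In the limma fit of RPKM, 10 were tested and 0 were past the threshold, and 0 at an unadjusted p under 0.05. Prkar1a, a regulatory subunit of protein kinase A that ends 0.092 kb from Fam20a on the opposite strand, was at 45.9 to 110.4 RPKM in WT and 61.9, 153 and 202 RPKM in RT. It was higher by 0.50 ± 0.15 (limma voom adjusted p = 0.049, or 0.12 with the replicate block), and was not called without any 1 of WT2, WT3, WT4, RT2 or RT3. Fam20a, which was chosen by its values, differed by 5.44 in the same fit.

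Ctsh, which encodes the lysosomal protease cathepsin H and lies 27.2 kb from Rasgrf1, differed between the library sets. It was at 2.84 and 2.97 RPKM in WT1 and WT2 and 14.1 RPKM in RT1, but at 44.3 and 36.8 RPKM in WT3 and WT4 and 2.49 and 4.33 RPKM in RT2 and RT3. Its difference of 1.94 ± 0.47 (limma voom adjusted p = 0.026) was -3.22 in the shallow libraries alone (limma voom adjusted p = 0.019). Rasgrf1, which was chosen for its higher RT values, was higher in RT in both sets, by 7.79 in the deep set and by 3.59 in the shallow set. The neighbours of Vwde, Tmem106b and Tmem168, had differences of 0.56 and 0.11 that were not called. Kdm3a, the only neighbour of Reep1 tested on reads, had one of 0.29. The other tested neighbours, Arl4a, Ubr3 and Zfp317, had differences of 0.32, 0.01 and -0.04, and none of these was called.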

How the data were processed

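The 9 genes and all gene lists were chosen with earlier results of these data known. CD4+ splenocytes were sorted by flow cytometry and libraries were made from 150 ng of RNA with an Illumina TruSeq v2 kit, per the labels' protocols. The authors deposited RPKM values for 19589 gene symbols in 7 columns, named as the 4 WT and 3 RT samples of the labels. Per the submitters' processing notes the genome was mm10. The aligner, counting tool and annotation were not given in the sources used here.

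Gene positions and exon lengths are those of GENCODE M21, matched by symbol (19432 found). RPKM times exon length and library total gave whole reads, within 0.01 reads, for 78.9% to 83.9% of values under 100 reads in each library. Letting the length vary, 10321 genes had the GENCODE length, all of the 9 among them, 2685 another single length and 839 lengths that differed between the 2 sets, while 14 could not be solved. Recovered reads made up 47.6% to 51.5% of the library total in the deep set and 88.0% to 91.0% in the shallow set. The deep libraries held fewer genes with 1 to 3 reads (80 to 167) than with 8 to 10 reads (197 to 297), unlike the shallow ones, and the reason was not tested.

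Tests were two-sided and used limma 3.58.1 in R 4.3.3, with Benjamini-Hochberg adjustment over all genes and a threshold of 0.05. The RPKM fit used log2(RPKM + 1) for genes at 1 RPKM or more in 3 libraries, with genotype as its term. Its differences understate the change of low genes. The read fit used voom with genotype and library set, for genes with 10 or more reads over the shallow libraries. It gives the deep libraries more weight. Both were tested on simulated data with genes changed by a known fold. The read fit called most of the changed genes. The RPKM fit gave the direction of their median change, with the size of decreases understated. It called none of them, so a gene it does not call may still differ. Folds per set pool reads and have exact conditional intervals, which cover counting error. Where the shallow WT libraries held no reads, WT was set at 3 reads, and that fold has no interval.

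Genes named beside the 9 were up to 3 called relatives per family by smallest p (with none called, the relative of highest mean RPKM), called neighbours, and the 5 others with the largest gap, leaving out predicted genes and immune receptor segments. Alternatives were another pseudocount, other filters, scalings and terms, each library set alone, and each library left out in turn. Scin, Rasgrf1, Muc16, Col16a1 and Reep1 fall under the RPKM filter once an RT library is left out, so they have no such value in that fit.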

Additional observations from a re-analysis of the deposited data

Results flagged for a closer look

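In 2 of the 9 genes, WT1 had the highest WT value by a wide margin. Rasgrf1 was at 0.282 RPKM in WT1, from 58 reads, and at 0 in WT2, WT3 and WT4. Muc16 was at 0.131 RPKM in WT1, from 64 reads, and at 0.0133 RPKM or less in the other WT libraries. What drew attention was the gap from WT1 to the next value over the range of the 4, beyond Dixon's 95% critical value. Chance passes it in about 5% of groups of like values, but these libraries differ in depth, so that rate need not hold. For Rasgrf1 the ratio is 1 for any WT1 value above 0, since the other WT values are 0. The ratio does not show that WT1 differed from WT3 and WT4. At 3 reads, the limits there are 2.28 and 2.23 RPKM for Rasgrf1 and 0.957 and 0.936 RPKM for Muc16, above the WT1 values. These are also values that the genes were chosen by. Both values lay below the lowest RT value of their gene, 1.71 RPKM for Rasgrf1 and 1.08 RPKM for Muc16. WT1 was also above WT2 for the other 7 genes. The source of these reads in WT1 was not tested.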

How the results depend on the processing

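The sign of the log2 difference of the 9 genes was fixed by their choice, since every RT library lay above every WT library, so its persistence says nothing of stability. In the RPKM fit 84 of their 93 alternative values stayed within 1 SD and 9 moved, all with a pseudocount of 0.1 RPKM (3.93 for Muc16 to 7.42 for Scin). In the read fit 98 stayed and 19 moved, with a range of 3.57 to 7.85 for Rasgrf1 and 5.04 to 9.34 for Vwde.

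The RPKM fit called 4 genes higher and 1 lower. It called 0 and 0 with a pseudocount of 0.1 RPKM, 0 and 0 without a filter, 21 and 5 with library set as a term and 20 and 7 after quantile normalization. Leaving out 1 library gave 0 to 10 higher and 0 to 5 lower, the most without RT1 and 0 without WT2, WT3, RT2 or RT3. Before adjustment, 435 genes were higher and 400 lower at a p under 0.05.

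The read fit called 567 higher and 493 lower. It called 309 and 208 without the library set term, 354 and 179 in the deep libraries alone and 199 and 275 in the shallow libraries alone. Leaving out 1 library gave 0 to 768 higher and 0 to 682 lower. It gave 0 without RT1, which leaves no deep RT library, and 347 and 311 without RT3. Ctsh was reversed in the shallow libraries (-3.22), as was Myo1c (-0.16). Leaving out 1 library gave -3.24 to 2.11 for Ctsh and -0.15 to 1.29 for Myo1c, with the low ends without RT1. Of the other values of relatives and neighbours, 120 kept their side of the threshold, 44 lost their call and 1 gained one. The cause of these changes was not tested.

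Deviations from the group means correlated at 0.43, -0.18 and 0.18 between samples numbered 1, 2 and 3, so the numbers were not taken to pair samples. With the replicate number as a replicate block, the RPKM fit called 0 higher and 0 lower and the read fit 630 higher and 557 lower. Depth limits the shallow libraries, where 9 of the 36 values of the 9 genes rest on 1 to 3 reads.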
